A study of Homo sapiens with 12 samples.

Results

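The 10 genes described here encode the core subunits of human cohesin and the proteins that load, lock and release it: RAD21, SMC1A, SMC3, STAG1, STAG2, NIPBL, ESCO2, PDS5A, PDS5B and WAPL. They were taken as the loci of the deposited FPKM table whose gene name holds a member symbol, which gave 10 of 57908 loci. FPKM is fragments per kilobase of transcript, scaled to the mapped fragments of the library, so levels of different genes are per length. The locus of RAD21 also carries the name of the microRNA gene MIR3610, and the other 9 loci carry the member's name alone.

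Cohesin is a ring of the coiled-coil ATPases SMC1A and SMC3, closed by the kleisin RAD21, to which STAG1 or STAG2 binds. NIPBL loads the ring on chromatin, ESCO2 acetylates SMC3 during S phase so that sister chromatids stay joined, and WAPL with PDS5A or PDS5B takes unlocked rings off again. In epithelial cells the complex holds sister chromatids together until anaphase and folds the interphase genome into loops, and it serves repair of broken DNA by recombination.

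The cells were HCT116, an established human colorectal carcinoma line. All were transfected: NSE4 cells with an NSE4A-flag plasmid, SMC5 cells with an SMC5-flag plasmid, and GFP cells with a control plasmid, named GFP in the sample titles and vector in the design text. NSE4A (gene NSMCE4A) and SMC5 are subunits of SMC5/6, a ring complex related to cohesin. Each transfected culture was split after 24 h and given 1000 nM doxorubicin, an anthracycline that traps topoisomerase II on DNA, or PBS, for 24 h. All groups were labelled wild type, so none of the 10 genes was itself altered by design. There were 2 libraries per group and 6 groups: NSE4 cells with doxorubicin, NSE4 cells with PBS, SMC5 cells with doxorubicin, SMC5 cells with PBS, GFP cells with doxorubicin and GFP cells with PBS. The labels name no separate cultures behind the replicates, and the p-values therefore rest on a spread between libraries that may be technical.

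The libraries held 13.4 to 19.4 M fragments, as estimated from the spacing of the lowest FPKM values. SMC5 cells with doxorubicin had 2 columns whose difference was below sampling noise, since 7 loci were 0 in just 1 column of the pair, where replicates of the other 5 groups disagreed in this way at 4216 to 5291 loci. They were counted as 1 sample with no SD, which left 5 doxorubicin and 6 PBS samples. NSMCE4A stood at 4069 to 6287 FPKM in NSE4 cells, at 68.7 to 89.4 FPKM in GFP cells and at 32.6 to 43.1 FPKM in SMC5 cells. SMC5 stood at 811 to 979 FPKM in SMC5 cells and at 7.02 to 34.4 FPKM in the rest. CDKN1A, the p53 target p21, stood at 906 to 1118 FPKM with doxorubicin and 292 to 359 FPKM with PBS. All 6 epithelial markers were present in all samples (summed level 3267 to 3831 FPKM with doxorubicin and 3506 to 4205 FPKM with PBS). That sum includes KRT18 and KRT19, whose loci also carry another gene name. The leukocyte marker CD14 shares its locus with NDUFA2, so its own level cannot be read. That locus had 112 to 122 FPKM with doxorubicin and 85.2 to 99.1 FPKM with PBS. Of the markers of fibroblasts, leukocytes and endothelium with a locus of their own, COL1A1 had 15.6 to 27.0 FPKM with doxorubicin and 17.7 to 25.2 FPKM with PBS, and the other 8 were at or below 0.914 FPKM. COL1A2, DCN and LUM were listed at 0 in all 6 PBS samples.

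Over the 3 plasmid backgrounds, doxorubicin-treated cells had less RNA of RAD21, STAG2, NIPBL and PDS5A and more RNA of ESCO2 than PBS-treated cells. Of these, STAG2 alone overlapped between treatments, and its log2 change was uneven, at -0.10 in SMC5 cells and -1.43 in GFP cells. The SMC arms of the ring, STAG1, PDS5B and WAPL did not pass the test. Means in doxorubicin samples were 1.37 times lower for RAD21, 1.74 times lower for STAG2, 1.35 times lower for NIPBL and 1.43 times lower for PDS5A, and 2.09 times higher for ESCO2. In a limma fit of log2(FPKM + 1) over all 15833 loci with at least 1 FPKM in at least 2 samples, 5 of the 10 members were called at an adjusted p under 0.05, 1 higher and 4 lower. In the same comparison 51.6% of all tested loci were called, 28.0% higher and 23.6% lower, so the share of members called was near that of the background. The median log2 change was -0.13 over the 10 members and 0.03 over all tested loci. All 10 members passed the filter in every sample. These are bulk samples, so fewer cells with a transcript and less of it per cell cannot be told apart.

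**Figure D1:**
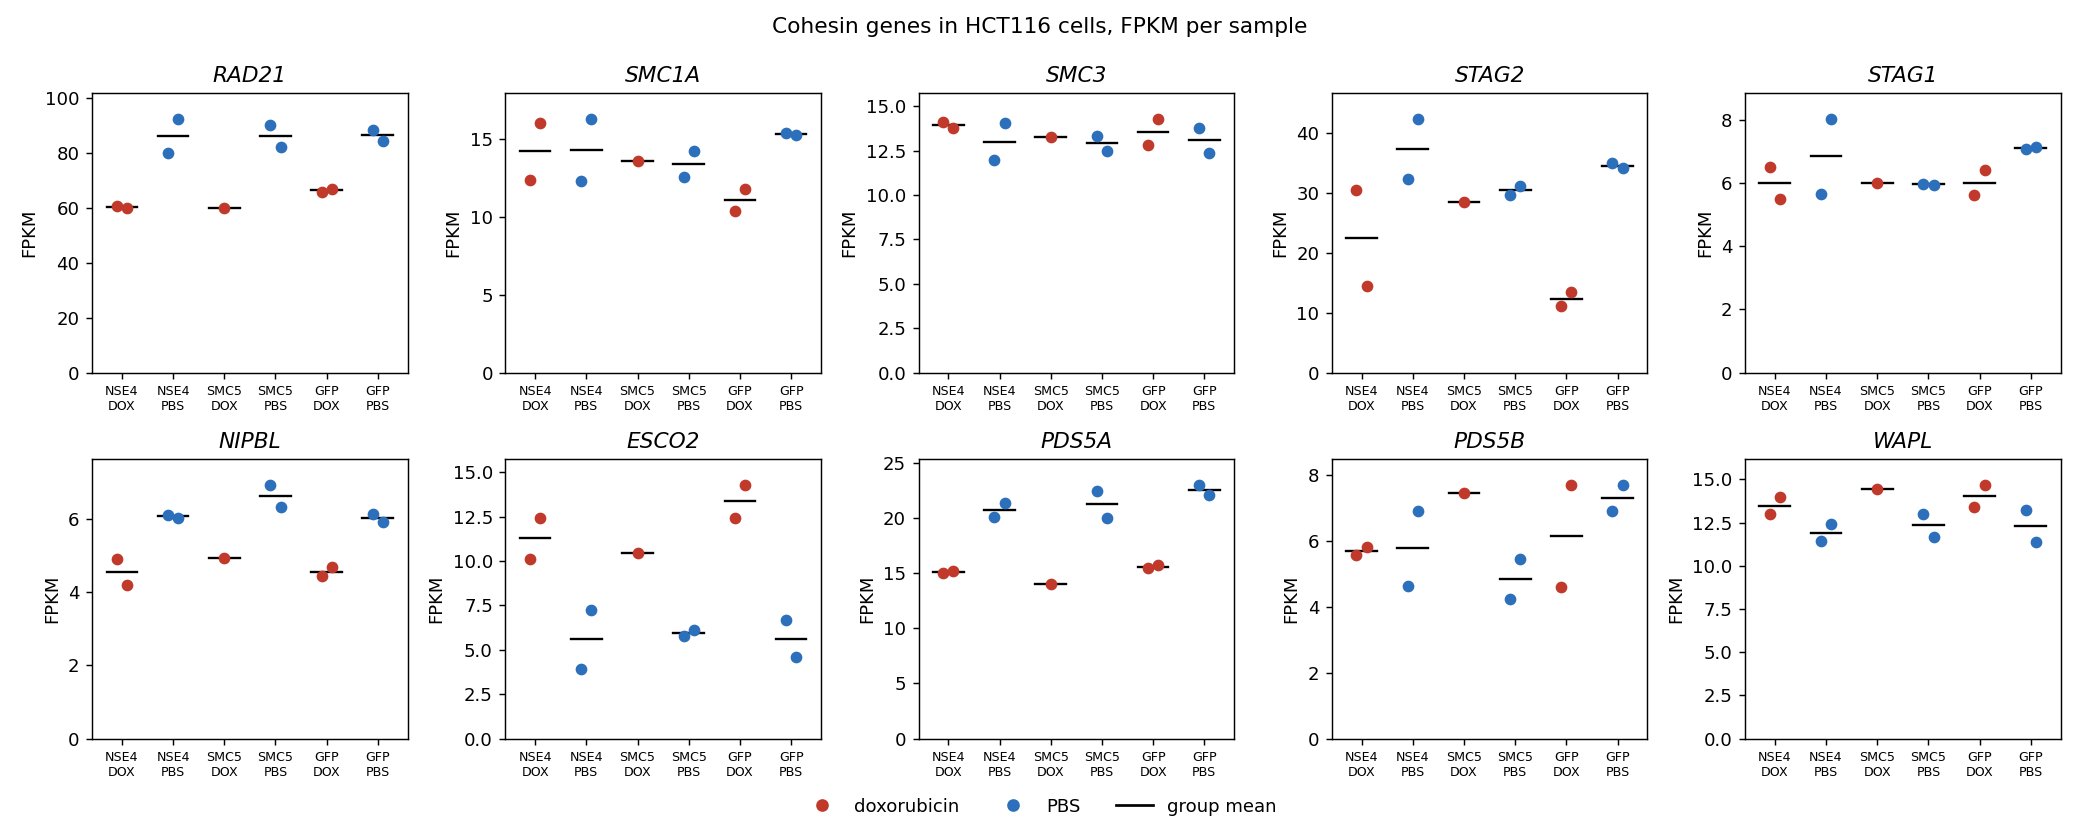
FPKM of the 10 genes in each of the 11 samples, with 1 panel per gene, its vertical axis from 0, 1 point per sample, groups along the horizontal axis and short lines at group means. RAD21, PDS5A and NIPBL lie lower and ESCO2 higher in all 5 doxorubicin samples than in all 6 PBS samples, while STAG2 spreads over 11.1 to 30.5 FPKM with doxorubicin.

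RAD21, the kleisin that closes the ring and that separase cuts at anaphase, was the most abundant member per length in every sample. It had 60.8 and 60.2 FPKM in doxorubicin-treated NSE4 cells and 80.0 and 92.6 FPKM in PBS-treated NSE4 cells. In SMC5 cells it had 60.0 FPKM with doxorubicin and 90.3 and 82.2 FPKM with PBS. GFP cells held 66.0 and 67.0 FPKM with doxorubicin and 88.5 and 84.4 FPKM with PBS. All 5 doxorubicin samples were below all 6 PBS samples, and the plasmid backgrounds lay close together within each treatment. RAD21 fell by 0.46 on the log2(FPKM + 1) scale over the 3 backgrounds (SE 0.06, limma adjusted p = 3.79e-04). In the single backgrounds the log2 change was -0.50 in NSE4 cells (adjusted p = 0.00668), -0.51 in SMC5 cells (adjusted p = 0.0199) and -0.37 in GFP cells (adjusted p = 0.0218, limma). Ordered by mean, the groups ran from SMC5 (60.0 FPKM), NSE4 (60.5 ± 0.469 FPKM, SD, n = 2) and GFP cells (66.5 ± 0.722 FPKM) with doxorubicin to SMC5 (86.2 ± 5.76 FPKM), NSE4 (86.3 ± 8.90 FPKM) and GFP cells (86.4 ± 2.84 FPKM) with PBS. The 3 PBS groups did not differ beyond their spread.

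SMC1A and SMC3, the arms that carry the ATPase heads, had overlapping levels per length. SMC3 had 12.8 to 14.3 FPKM (median 13.8) in doxorubicin samples and 11.98 to 14.1 FPKM (median 12.9) in PBS samples. Its log2 change over the 3 backgrounds was 0.06, with a 95% interval of -0.10 to 0.23 (limma adjusted p = 0.504). SMC1A had 10.4 to 16.1 FPKM (median 12.4) in doxorubicin samples and 12.3 to 16.3 FPKM (median 14.8) in PBS samples. The ranges overlapped for both genes. The log2 change of SMC1A was -0.14 over the 3 backgrounds (interval -0.38 to 0.09). In GFP cells SMC1A had 10.4 and 11.8 FPKM with doxorubicin and 15.4 and 15.3 FPKM with PBS, without overlap, and a log2 change of -0.44 (SE 0.17, limma adjusted p = 0.078). That value passed in some other settings, such as median-ratio scaling (adjusted p = 0.0258) and GC adjustment (adjusted p = 0.0267). The value did not pass in others, such as transcript length adjustment (adjusted p = 0.123) and no filter on low values (adjusted p = 0.131, limma). In NSE4 cells its log2 change was -0.01 (interval -0.39 to 0.37), and in SMC5 cells 0.02 (interval -0.45 to 0.48).

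Set against its partners, RAD21 stood at 4.30 to 5.14 times the FPKM of SMC3 in doxorubicin samples and at 6.41 to 6.83 times in PBS samples. Its ratio to SMC1A was 3.74 to 6.37 in doxorubicin samples and 5.54 to 7.18 in PBS samples. The ratio to SMC3 did not overlap between treatments and the ratio to SMC1A did. These ratios describe RNA per length, not protein in the ring.

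STAG2, the more abundant of the STAG subunits here, showed the widest spread of the 10 genes as a fold between its lowest and highest sample. In doxorubicin-treated NSE4 cells it had 30.5 and 14.5 FPKM, against 32.4 and 42.5 FPKM in PBS-treated NSE4 cells. SMC5 cells had 28.5 FPKM with doxorubicin and 29.7 and 31.3 FPKM with PBS. In GFP cells STAG2 had 11.1 and 13.5 FPKM with doxorubicin and 35.0 and 34.3 FPKM with PBS. The GFP libraries with doxorubicin and replicate 2 of doxorubicin-treated NSE4 cells were low, and replicate 1 of doxorubicin-treated NSE4 cells lay inside the PBS range. STAG2 fell by 1.43 on the log2 scale in GFP cells (SE 0.29, interval -2.09 to -0.76, limma adjusted p = 0.00756), a mean 2.82 times lower. The log2 change was -0.79 in NSE4 cells (interval -1.45 to -0.12, adjusted p = 0.073) and -0.10 in SMC5 cells (interval -0.91 to 0.72, adjusted p = 0.884), neither past the threshold in limma. Averaged over the 3 backgrounds STAG2 fell by 0.77 (SE 0.18, limma adjusted p = 0.00738).

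The value in NSE4 cells depended on single libraries. Without replicate 1 of the doxorubicin-treated NSE4 cells the log2 change of STAG2 was -1.30 (limma adjusted p = 0.00545), and without replicate 2 it was -0.27 (adjusted p = 0.341). The 2 libraries differed 2.11-fold in STAG2, the widest gap within a group for any member. In CDKN1A they stood at 1067 and 1118 FPKM, and in RAD21 at 60.8 and 60.2 FPKM, so they were close in these responses. They were farther apart in SMC1A, at 12.4 and 16.1 FPKM, and in SMC5, at 8.63 and 34.4 FPKM. Gaps of this kind were not particular to that pair. SMC1A had 12.3 and 16.3 FPKM in PBS-treated NSE4 cells, and SMC5 had 33.5 and 8.76 FPKM in PBS-treated GFP cells. Ordered by group mean, STAG2 was lowest in GFP cells with doxorubicin (12.3 ± 1.75 FPKM, SD, n = 2), followed by NSE4 cells (22.5 ± 11.3 FPKM) and SMC5 cells (28.5 FPKM) with doxorubicin. The PBS groups came next, with SMC5 cells at 30.5 ± 1.09, GFP cells at 34.6 ± 0.488 and NSE4 cells at 37.4 ± 7.15 FPKM. With doxorubicin, the means of SMC5 cells and of GFP cells lay within the SD of the NSE4 group, which rests on n = 2. Both doxorubicin-treated NSE4 libraries were nevertheless above both doxorubicin-treated GFP libraries.

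STAG1, the paralogue that takes the place of STAG2 in other cohesin rings, had 5.50 to 6.52 FPKM (median 6.01) in doxorubicin samples and 5.66 to 8.04 FPKM (median 6.53) in PBS samples. The ranges overlapped, and its log2 change over the 3 backgrounds was -0.12 (interval -0.35 to 0.11, limma adjusted p = 0.352). STAG2 made up 82.4 and 72.5% of the summed STAG2 and STAG1 FPKM in doxorubicin-treated NSE4 cells, against 85.1 and 84.1% in PBS-treated NSE4 cells. In SMC5 cells the share was 82.6% with doxorubicin and 83.3 and 84.0% with PBS. GFP cells had 66.3 and 67.9% with doxorubicin and 83.2 and 82.8% with PBS. Each doxorubicin sample was below each PBS sample, although the highest doxorubicin share of 82.6% and the lowest PBS share of 82.8% nearly met. The summed FPKM of the pair was 16.7 to 37.0 in doxorubicin samples and 35.7 to 50.5 in PBS samples.

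**Figure D2:**
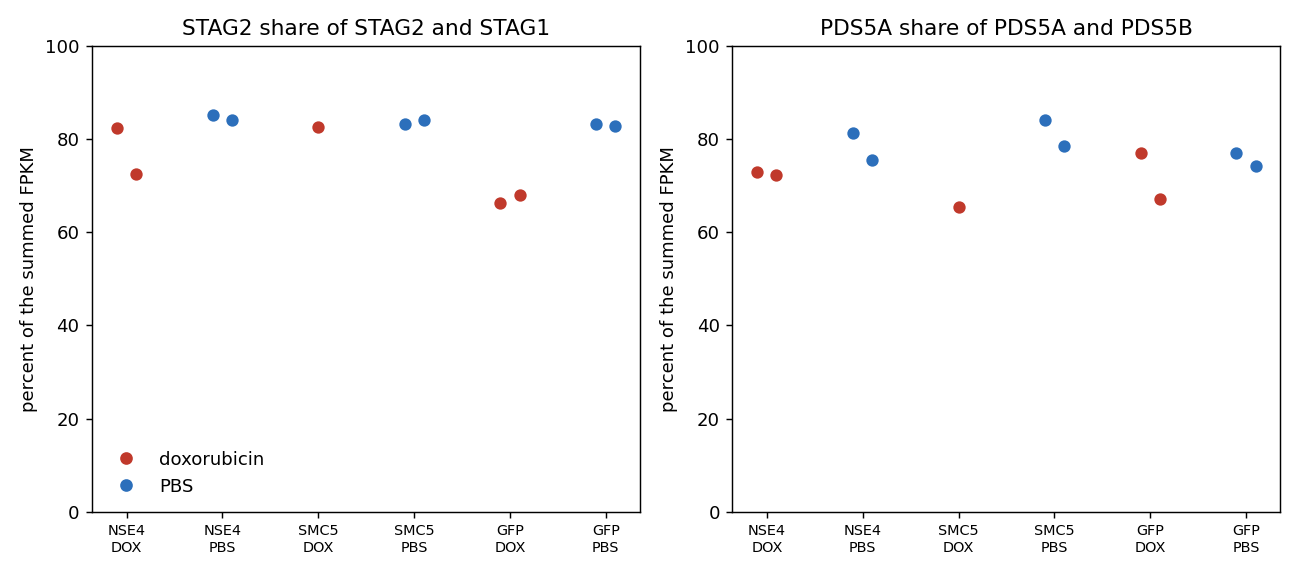
Share (percent of summed FPKM) of STAG2 in STAG2 plus STAG1 and of PDS5A in PDS5A plus PDS5B, with 1 point per sample by group. The STAG2 share lies at 66.3 and 67.9% in GFP cells with doxorubicin and at 82.8 to 85.1% in all PBS samples.

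NIPBL, the loader, had the lowest level per length in the doxorubicin samples. In NSE4 cells it had 4.90 and 4.20 FPKM with doxorubicin and 6.10 and 6.02 FPKM with PBS. In SMC5 cells it had 4.91 FPKM with doxorubicin and 6.93 and 6.31 FPKM with PBS. In GFP cells it had 4.44 and 4.68 FPKM with doxorubicin and 6.12 and 5.91 FPKM with PBS. All 5 doxorubicin samples lay below all 6 PBS samples. NIPBL fell by 0.35 on the log2 scale over the 3 backgrounds (SE 0.07, limma adjusted p = 0.00384). The single-background changes were alike in size but did not pass, at -0.35 in NSE4 cells (adjusted p = 0.0506), -0.36 in SMC5 cells (adjusted p = 0.105) and -0.34 in GFP cells (adjusted p = 0.0572, limma). Quantile normalization brought NIPBL past the threshold in NSE4 cells (adjusted p = 0.0377) and in GFP cells (adjusted p = 0.041).

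ESCO2, the acetyltransferase that acts in S phase, was the only member called higher. It had 10.1 and 12.4 FPKM in doxorubicin-treated NSE4 cells, against 3.92 and 7.27 FPKM in PBS-treated NSE4 cells. In SMC5 cells it had 10.4 FPKM with doxorubicin and 5.75 and 6.11 FPKM with PBS. In GFP cells it had 12.5 and 14.3 FPKM with doxorubicin and 6.67 and 4.58 FPKM with PBS. No doxorubicin sample was as low as the highest PBS sample, replicate 2 of the NSE4 cells. ESCO2 rose by 0.93 on the log2 scale over the 3 backgrounds (SE 0.16, interval 0.57 to 1.29, limma adjusted p = 0.00133). It rose by 1.13 in GFP cells (adjusted p = 0.0108) and by 0.94 in NSE4 cells (adjusted p = 0.0236), and its change of 0.72 in SMC5 cells did not pass (interval 0.02 to 1.43, limma adjusted p = 0.132). With the compared groups fitted alone that change passed in SMC5 cells (adjusted p = 0.025).

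The single-background calls of ESCO2 depended on single libraries. In NSE4 cells the call was lost without PBS replicate 1 (log2 change 0.57, limma adjusted p = 0.114), without doxorubicin replicate 1 (adjusted p = 0.0553) and without doxorubicin replicate 2 (adjusted p = 0.12). In GFP cells it was lost without PBS replicate 2 (adjusted p = 0.0725) and without doxorubicin replicate 2 (adjusted p = 0.0677). The averaged call held without each library in turn, with limma adjusted p-values of 4.20e-04 to 0.0056. ESCO2 was also the least deeply covered member, with an estimated 238 to 825 fragments per library.

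Across the 11 samples, the genes whose log2(FPKM + 1) followed ESCO2 most closely were BRI3BP (Pearson r 0.996), ORC6 (r 0.986), ARHGAP1 (r 0.984), WTAP (r 0.984) and TMPO-AS1 (r 0.982). These are the 5 highest values among tested loci with 1 symbol, and all samples share the doxorubicin contrast, so r is a description. ORC6, a subunit of the origin recognition complex, had 27.4 to 33.0 FPKM in doxorubicin samples and 11.5 to 19.0 FPKM in PBS samples. BRI3BP had 13.7 to 15.5 FPKM with doxorubicin and 9.26 to 11.8 FPKM with PBS, without overlap.

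PDS5A, which with WAPL opens the ring and which also helps to keep locked rings in place, had the smallest adjusted p of the members over the 3 backgrounds. In NSE4 cells it had 15.0 and 15.2 FPKM with doxorubicin and 20.1 and 21.4 FPKM with PBS. In SMC5 cells it had 14.1 FPKM with doxorubicin and 22.5 and 20.1 FPKM with PBS. In GFP cells it had 15.4 and 15.7 FPKM with doxorubicin and 23.1 and 22.2 FPKM with PBS. The doxorubicin samples lay together at 14.1 to 15.7 FPKM, all below the PBS samples. PDS5A fell by 0.50 on the log2 scale over the 3 backgrounds (SE 0.06, limma adjusted p = 2.36e-04). It fell in each background, with log2 changes of -0.43 in NSE4 cells (adjusted p = 0.0118), -0.56 in SMC5 cells (adjusted p = 0.0135) and -0.51 in GFP cells (adjusted p = 0.00564, limma).

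The paralogue PDS5B had 4.60 to 7.71 FPKM (median 5.82) in doxorubicin samples and 4.25 to 7.72 FPKM (median 6.19) in PBS samples. These ranges were almost the same, and its log2 change over the 3 backgrounds was 0.10 (interval -0.24 to 0.43, limma adjusted p = 0.613). In SMC5 cells PDS5B had 7.46 FPKM with doxorubicin and 4.25 and 5.46 FPKM with PBS, a log2 change of 0.54 that did not pass (interval -0.12 to 1.20, limma adjusted p = 0.225). The GFP libraries with doxorubicin had 4.60 and 7.71 FPKM of PDS5B, a 1.68-fold gap within 1 group. PDS5A made up 65.3 to 77.1% of the summed PDS5A and PDS5B FPKM in doxorubicin samples and 74.2 to 84.1% in PBS samples, and these ranges overlapped.

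WAPL, the release factor, had 13.0 to 14.7 FPKM (median 14.0) in doxorubicin samples and 11.4 to 13.2 FPKM (median 12.1) in PBS samples. The ranges met only at their edges. Its log2 change over the 3 backgrounds was 0.19 (interval 0.02 to 0.35, limma adjusted p = 0.0598). It passed with GC adjustment (adjusted p = 0.00797) and with transcript length adjustment (adjusted p = 0.0214), and also without PBS replicate 1 of the GFP cells (adjusted p = 0.0465) or without column 2 of the doxorubicin-treated SMC5 cells (adjusted p = 0.0433). None of the single backgrounds passed, with log2 changes of 0.16 in NSE4, 0.22 in SMC5 and 0.18 in GFP cells.

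**Figure D3:**
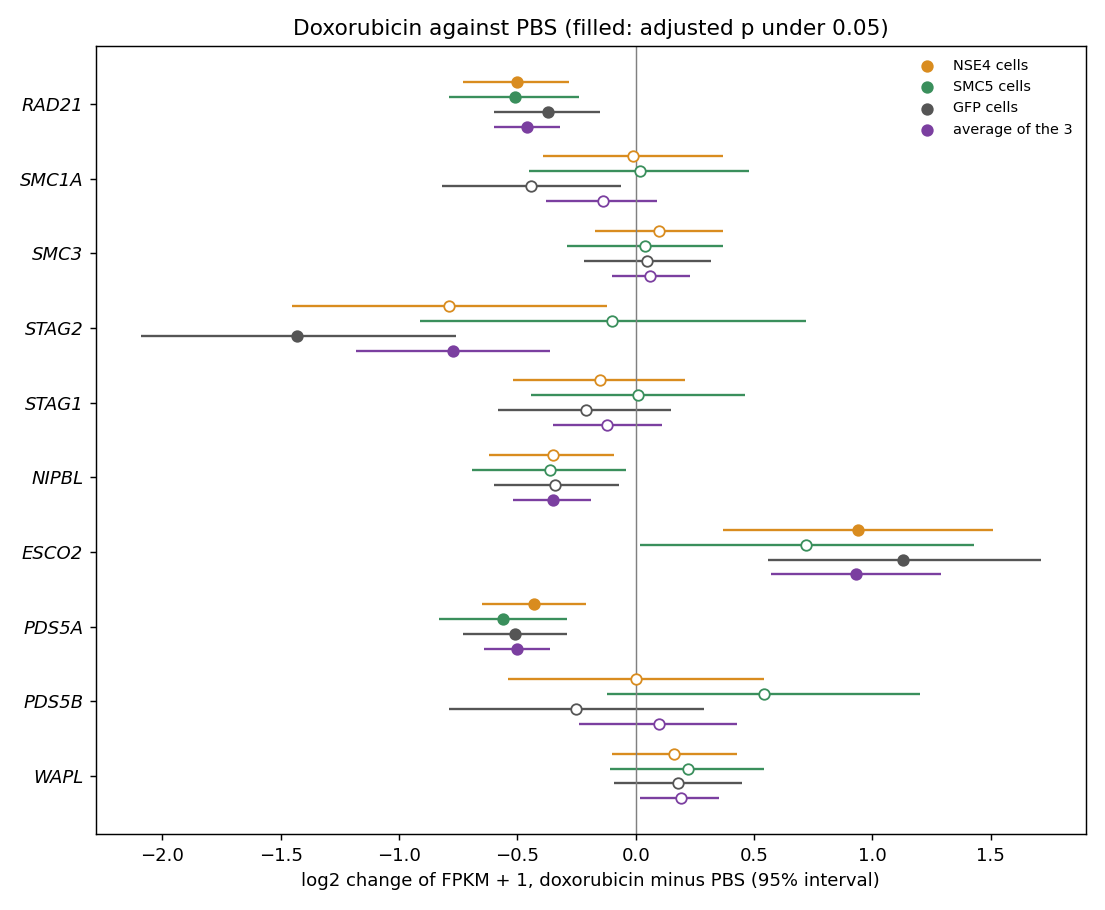
Log2 change of FPKM + 1 (doxorubicin minus PBS) of the 10 genes in NSE4, SMC5 and GFP cells and averaged over them, with 95% intervals; filled points passed the limma test at an adjusted p under 0.05. The averages of RAD21, STAG2, NIPBL and PDS5A lie below 0 and that of ESCO2 above 0.

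Counted by background, 3 members passed in NSE4 cells (1 higher, 2 lower), 2 in SMC5 cells (0 higher, 2 lower) and 4 in GFP cells (1 higher, 3 lower). Of all tested loci 30.2% passed in NSE4 cells (16.3% higher, 13.9% lower), 20.9% in SMC5 cells (11.0% higher, 9.87% lower) and 31.1% in GFP cells (17.0% higher, 14.1% lower), so the members were again called about as often as loci at large. At an unadjusted p under 0.05 there were 5 members in NSE4, 4 in SMC5 and 6 in GFP cells, against 41.9% of all tested loci in NSE4, 35.3% in SMC5 and 42.4% in GFP cells. RAD21 and PDS5A passed in each background. RAD21 in GFP cells passed in no fit that left out 1 of the 4 GFP libraries (limma adjusted p = 0.0668 to 0.107), while RAD21 in NSE4 cells passed in all 4 such fits (adjusted p = 0.00882 to 0.0365). Without PBS replicate 1 of the SMC5 cells, RAD21 (adjusted p = 0.0866) and PDS5A (adjusted p = 0.0625) no longer passed there and the count of members was 0. PDS5A in NSE4 cells was lost without PBS replicate 2 (adjusted p = 0.0547) or doxorubicin replicate 1 (adjusted p = 0.0557).

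In 4 of the 10 members the 5 doxorubicin samples did not overlap the 6 PBS samples: ESCO2 was higher, and RAD21, NIPBL and PDS5A were lower. The same held for 40.6% of all tested loci (22.0% higher and 18.6% lower), again the share seen in the members.

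The 10 genes have long transcripts by the GENCODE 29 annotation, and all but SMC1A are AT-rich. Their longest transcripts run from 3749 to 10435 bases with 37.1 to 49.7% GC, against medians of 3095 bases and 49.8% over tested loci. Gene spans run from 28.9 kb for RAD21 to 416 kb for STAG1 and 462 kb for STAG2, against a median of 25.8 kb. Of 6799 tested loci with at most 49.7% GC, 27.5% were lower and 22.5% higher with doxorubicin over the 3 backgrounds, with a median log2 change of -0.04. That limit is the GC content of SMC1A, and the other members had at most 42.7%. The calls of RAD21, STAG2, NIPBL, ESCO2 and PDS5A over the 3 backgrounds held with GC adjustment. In the same annotation the span of RAD21 overlaps UTP23 and the antisense gene RAD21-AS1, that of ESCO2 overlaps CCDC25 and PBK, that of SMC1A overlaps RIBC1, that of STAG1 overlaps PCCB and that of STAG2 overlaps several genes. The counting is not stated to use strand, so fragments from such stretches cannot be told apart.

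PDS5A, NIPBL and STAG2 were called lower in the average over the 3 backgrounds, STAG2 unevenly between them. Their promoter windows are shown, from 250 bases before to 50 after the RefSeq transcription start on GRCh38.p14. They lie at chr4:39977862-39978161 on the minus strand for PDS5A, at chr5:36876519-36876818 on the plus strand for NIPBL and at chrX:123960310-123960609 on the plus strand for the first of the 3 starts of STAG2. The sequences run 5′ to 3′ along the gene, and capitals mark the letters of the CCAAT box, of the GC box (GGGCGG) and of E2F-type sites, read on either strand.
PDS5A: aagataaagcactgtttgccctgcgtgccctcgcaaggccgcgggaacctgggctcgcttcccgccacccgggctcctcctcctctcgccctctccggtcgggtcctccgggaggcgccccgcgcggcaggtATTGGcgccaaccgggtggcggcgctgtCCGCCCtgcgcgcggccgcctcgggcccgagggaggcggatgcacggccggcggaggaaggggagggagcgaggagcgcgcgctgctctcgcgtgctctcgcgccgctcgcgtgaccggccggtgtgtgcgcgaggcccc
NIPBL: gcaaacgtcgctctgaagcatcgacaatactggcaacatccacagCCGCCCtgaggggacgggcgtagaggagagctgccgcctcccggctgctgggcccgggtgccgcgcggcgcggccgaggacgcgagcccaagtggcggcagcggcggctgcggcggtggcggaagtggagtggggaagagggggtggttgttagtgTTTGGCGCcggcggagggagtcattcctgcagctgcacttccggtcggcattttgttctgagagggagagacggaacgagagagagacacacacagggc
STAG2: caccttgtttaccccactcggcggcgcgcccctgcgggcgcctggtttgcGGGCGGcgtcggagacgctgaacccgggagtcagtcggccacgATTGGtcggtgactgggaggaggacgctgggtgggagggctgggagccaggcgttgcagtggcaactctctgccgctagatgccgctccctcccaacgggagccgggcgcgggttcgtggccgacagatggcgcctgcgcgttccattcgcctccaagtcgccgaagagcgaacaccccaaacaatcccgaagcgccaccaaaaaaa
Of the 10 members, 8 had windows in the RefSeq table, 11 windows in all, and RAD21 and ESCO2 had none there. Both strands were searched, and overlapping matches were kept. The E2F-type letters TTTCCCGC, TTTGGCGC or TTTCGCGC stood in 4 of the 11 windows, at position -49 from the start in NIPBL, and in 1 window each of STAG1, STAG2 and SMC1A. Of all 35116 human windows 2.74% held them. The STAG2 match lay in another of its windows, not in the one shown. GGGCGG stood in all 11 windows, against 45.0% of all windows, and CCAAT in 6, against 34.6%. The cell cycle element letters TTTGAA or TTCGAA stood in 2, those of SMC3 and PDS5B, against 16.4%. The E2F-type, GC box and CCAAT letters stood in windows of members that fell and of members that were not called. The letters of NRF1, YY1 and TATA sites and of a p53 half-site, searched too, stood in 0 of the 11 windows. Of all windows 1.24% held those of NRF1, 0.849% those of YY1, 11.5% those of TATA and 6.63% a p53 half-site. The windows of SMC1A overlap, so letters they share were counted in each. A match is a description of the sequence, not a bound site.

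The plasmid comparisons asked whether extra NSE4A or SMC5 changed the cohesin genes with and without the drug. With doxorubicin, 0 of 10 members passed in NSE4 against GFP cells and 0 in SMC5 against GFP cells, where 0.0568% of all tested loci passed for NSE4 and 0.0316% for SMC5 in limma. With PBS, 0 members passed in either comparison, against 0.0442% of loci for NSE4 and 0.0% for SMC5. NSMCE4A itself passed in NSE4 against GFP cells with PBS and with doxorubicin. SMC5 itself did not pass in SMC5 against GFP cells, with PBS (log2 difference 5.66, limma adjusted p = 0.27) or with doxorubicin (log2 difference 6.02). So a count of 0 in the SMC5 comparisons cannot show that no member changed. The count of 0 in the NSE4 comparisons has the same limit. NSMCE4A passed there with log2 differences of 5.83 with PBS and 6.03 with doxorubicin. That does not show that smaller changes would have passed. At an unadjusted p under 0.05 there was 1 member, STAG2, in each doxorubicin comparison, against 3.37% of all tested loci for NSE4 and 3.01% for SMC5. There were 0 members in each PBS comparison at that level, against 2.85% of loci for NSE4 and 3.09% for SMC5. These comparisons share the GFP libraries. Median log2 differences of the members were -0.02 for NSE4 and 0.02 for SMC5 with doxorubicin, and -0.04 for NSE4 and -0.05 for SMC5 with PBS.

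With doxorubicin STAG2 had 30.5 and 14.5 FPKM in NSE4 cells and 28.5 FPKM in SMC5 cells, against 11.1 and 13.5 FPKM in GFP cells. All samples of the plasmid groups were above the GFP samples, replicate 2 of the NSE4 cells by the least. The log2 difference was 0.74 for NSE4 (interval 0.07 to 1.40, unadjusted p = 0.0332, limma adjusted p = 1.0) and 1.15 for SMC5 (interval 0.34 to 1.97, unadjusted p = 0.0111, adjusted p = 1.0). The NSE4 value was 0.23 without replicate 1 and 1.25 without replicate 2 of the doxorubicin-treated NSE4 cells (limma adjusted p = 1.0 and 0.172). With PBS the difference was 0.10 for NSE4 (interval -0.57 to 0.76) and -0.18 for SMC5 (interval -0.84 to 0.49). The next widest difference was that of PDS5B in SMC5 cells with PBS, at 4.25 and 5.46 FPKM against 6.92 and 7.72 FPKM in GFP cells (log2 difference -0.51, interval -1.05 to 0.03, limma adjusted p = 1.0).

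The test of whether doxorubicin acted differently on a gene in plasmid and GFP cells likewise called 0 members, against 0.0316% of loci for NSE4 and 0.0189% for SMC5. At an unadjusted p under 0.05 there were 0 members for NSE4, against 2.87% of loci, and 1 for SMC5, again STAG2, against 2.78% of loci. Its doxorubicin change was -0.10 in SMC5 cells against -1.43 in GFP cells, a difference of 1.33 on the log2 scale (SE 0.46, interval 0.28 to 2.38, unadjusted p = 0.0188, limma adjusted p = 1.0). In NSE4 cells it was -0.79, a difference from GFP cells of 0.64 (interval -0.30 to 1.58), which became 0.13 without replicate 1 and 1.16 without replicate 2 of the doxorubicin-treated NSE4 cells. Fitted on the compared groups alone the difference for SMC5 had an adjusted p of 0.279, and with the 12 columns entered separately, which counts 1 sample as 2, an adjusted p of 0.434. So the fall of STAG2 passed in GFP cells and not in SMC5 cells, and the difference between them did not pass over all loci. PDS5B had an interaction of 0.79 for SMC5 (interval -0.07 to 1.65) and 0.25 for NSE4 (interval -0.51 to 1.02). The SMC5 value was 0.47 without replicate 1 and 1.11 without replicate 2 of the doxorubicin-treated GFP cells.

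**Figure D4:**
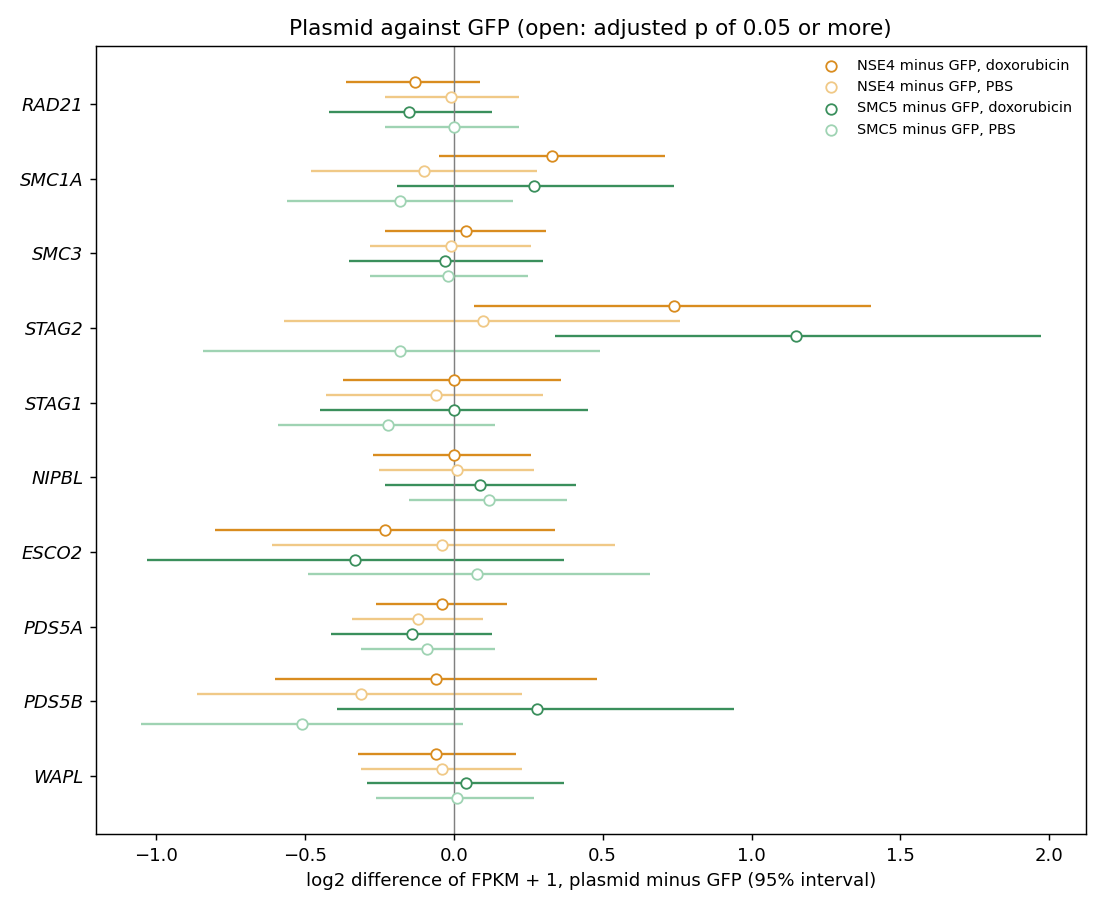
Log2 difference in FPKM + 1 of the 10 genes for NSE4 and SMC5 cells against GFP cells, with doxorubicin and with PBS, with 95% intervals; open points did not pass the limma test. All points are open, and STAG2 with doxorubicin lies farthest from 0, at 1.15 for SMC5 and 0.74 for NSE4.

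A list of 18 further genes of the pathway was read beside the members: partners of the loader and of ESCO2, protectors of centromeric cohesion, separase and its inhibitor, mitotic kinases and germline subunits. All 18 had a locus, 5 of them shared with another gene (HDAC8, PLK1, AURKB, STAG3 and RAD21L1) and 1, SMC1B, below the filter, which left 12. Over the 3 backgrounds 6 were higher and 2 lower with doxorubicin, with a median log2 change of 0.29, against 28.0 and 23.6% of all tested loci. In the single backgrounds 2 were higher and 1 lower in NSE4 cells, 0 higher and 2 lower in SMC5 cells, and 2 higher and 2 lower in GFP cells. The same comparisons called 30.2% of all tested loci in NSE4, 20.9% in SMC5 and 31.1% in GFP cells, near the shares of these 12. None of the 12 passed in a plasmid comparison or an interaction in limma.

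The 4 with the smallest p over the 3 backgrounds were BUB1, CDCA5, PTTG1 and ESCO1. BUB1, the checkpoint kinase that marks centromeres for cohesion protection, had 14.4 to 16.9 FPKM in doxorubicin samples and 21.3 to 26.0 FPKM in PBS samples, and fell by 0.54 on the log2 scale (SE 0.06, limma adjusted p = 1.34e-04). CDCA5, the sororin that shields locked rings from WAPL, had 34.2 to 47.5 FPKM with doxorubicin and 15.0 to 28.9 FPKM with PBS, and rose by 0.90 (SE 0.16, limma adjusted p = 0.00194). PTTG1, the securin that holds separase inactive, had 138 to 160 FPKM with doxorubicin and 115 to 125 FPKM with PBS, and rose by 0.28 (adjusted p = 0.0029, limma). ESCO1, the other SMC3 acetyltransferase, had 7.47 to 9.39 FPKM with doxorubicin and 10.4 to 12.4 FPKM with PBS, and fell by 0.38 (limma adjusted p = 0.00297). None of the 4 overlapped between treatments, which also held for 40.6% of all tested loci. The 4 were picked by their small p in this same comparison. ESCO1 and ESCO2 lay on opposite sides.

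**Figure D5:**
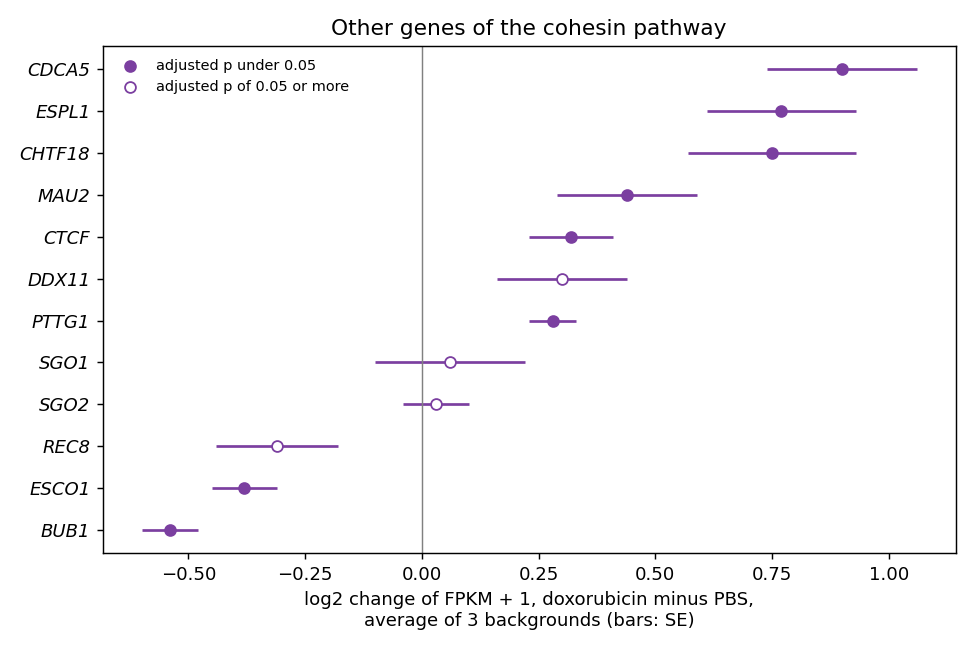
Log2 change of FPKM + 1 with doxorubicin, averaged over the 3 backgrounds, of the 12 further cohesin pathway genes that could be counted, with bars of 1 SE; filled points passed the limma test. CDCA5 at 0.90 lies farthest above 0 and BUB1 at -0.54 farthest below.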

How the data were processed

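RNA of 12 HCT116 libraries was measured by sequencing, and the authors deposited 1 table of FPKM values for 57908 loci. TopHat and Cufflinks made these deposited FPKM values, per the submitters' processing notes, with no versions; the genome build and annotation are not given in the sources used here. Samples were grouped by their titles. The near-identical columns of doxorubicin-treated SMC5 cells (Pearson r 0.99943, against 0.98682 to 0.98805 in the other pairs) were averaged, leaving 11 samples. Loci with at least 1 FPKM in at least 2 samples (15833) were fitted as log2(FPKM + 1) with limma 3.58.1 in R 4.3.3, with the 6 groups fitted jointly, a trend of prior variance with level, 5 residual degrees of freedom and no block. P-values were adjusted by Benjamini-Hochberg over all loci in each of 10 comparisons, with a threshold of 0.05, and the script was tested on simulated data. On this scale the change of a gene of low FPKM is understated. Ratios of means are of FPKM. Intervals are 95% intervals from limma. Fragment numbers were estimated from single-fragment FPKM steps in transcripts of at least 1500 bases, and no count test was run.

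The rule for naming took all 10 members in every doxorubicin comparison, NSMCE4A, SMC5 and CDKN1A as checks, up to 4 genes of smallest p in the wider list, and the 5 loci closest to the member of largest change. That member was ESCO2, by its averaged change. The members and lists were chosen with earlier results of these data known. Gene spans, lengths and GC content are from GENCODE 29 and promoter sequences from RefSeq on GRCh38.p14, both matched by symbol; GC content was known for 86.5% of tested loci. Figures were drawn with matplotlib 3.10.9, and tables made with numpy 2.4.6 and pandas 2.3.3 under Python 3.11.15. Alternatives were 2 scalings, 2 filters, a pseudocount of 0.1, a replicate block, GC and length adjustment, the compared groups alone, 12 separate columns, and leaving out each library.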

Additional observations from a re-analysis of the deposited data

How the results depend on the processing

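Over the 3 backgrounds, RAD21, STAG2, NIPBL, ESCO2 and PDS5A passed with the same sign in every alternative tried and without each library in turn, where 5 or 6 members passed. The compared groups alone could not be fitted as an alternative there, since that comparison uses all groups. Leaving out 1 library gave 2 to 3 members in GFP cells (4 with all libraries), 2 to 2 in NSE4 cells (3 with all) and 0 to 2 in SMC5 cells (2 with all), and 5 to 6 over the 3 backgrounds. With the compared groups alone 1 member passed in NSE4 cells, RAD21, since ESCO2 (adjusted p = 0.0508) and PDS5A (adjusted p = 0.0532) did not, while 3 passed in SMC5 cells, with ESCO2 (adjusted p = 0.025) in addition. With 12 separate columns 4 passed in SMC5 cells, NIPBL and ESCO2 in addition, but that fit counts 1 sample as 2. With no filter ESCO2 in NSE4 cells had an adjusted p of 0.0567. The count of all loci called was 3310 in SMC5 cells as reported, 2944 to 6077 over the alternatives that keep all libraries and 1798 to 3523 without 1 library. Over the 3 backgrounds it was 8172 as reported, 6394 to 9508 with all libraries kept and 7425 to 8258 without 1 library.

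Replicate numbers gave no sign of pairing: the differences between replicates 1 and 2 correlated between groups at -0.04 to 0.07. Doxorubicin-treated SMC5 cells were not part of that check, and it cannot show that the libraries were unpaired. With the replicate block 4 members passed in NSE4, 2 in SMC5 and 6 in GFP cells, and 5 over the 3 backgrounds. With GC adjustment and the block together PDS5B also passed in SMC5 cells (log2 change 0.61, adjusted p = 0.0445). No member passed with the block in a plasmid comparison or interaction.

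The sign changed only for members that did not pass. In NSE4 cells SMC1A was at 0.0729 with length adjustment, and PDS5B at -0.0249 with median-ratio scaling and -0.0378 with quantile normalization. In SMC5 cells, median-ratio scaling gave -0.0042 for SMC1A and -0.0108 for STAG1, and quantile normalization gave -0.0223 for SMC1A, -0.005 for SMC3 and -0.0303 for STAG1. Leaving out 1 library moved the log2 change over -0.0244 to 0.12 for SMC3 and -0.57 to 0.0682 for PDS5B in GFP cells. In NSE4 cells it moved over -0.20 to 0.18 for SMC1A, -0.0085 to 0.21 for SMC3, -0.37 to 0.0691 for STAG1 and -0.24 to 0.25 for PDS5B. In SMC5 cells it moved over -0.0673 to 0.10 for SMC1A, -0.0049 to 0.0818 for SMC3 and -0.0027 to 0.0223 for STAG1, and over the 3 backgrounds -0.0097 to 0.20 for PDS5B. Against GFP cells, STAG2 in NSE4 cells with PBS ranged from -0.0949 to 0.29, PDS5B with doxorubicin from -0.38 to 0.26 in NSE4 and from -0.0415 to 0.60 in SMC5 cells, and the PDS5B interaction for NSE4 from -0.0659 to 0.57. The cause of these changes was not tested. With 2 libraries a group, and 1 sample in doxorubicin-treated SMC5 cells, a change that did not pass is not shown to be absent. Its interval gives the sizes that remain possible. Coverage was as low as an estimated 238 fragments, for ESCO2, and the effect of depth on the intervals was not tested.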
